A study of Homo sapiens with 3 samples.

Results

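Integrins and laminins are the receptors and ligands by which cells hold to the basement membrane. The 39 genes described here were all protein-coding genes, among 20037 in a RefSeq gene table, whose symbols name an integrin alpha or beta subunit or a laminin chain. They comprised 27 integrin genes and 12 laminin genes. The letters of the rule also took in ITGBL1, which encodes a secreted protein that resembles a beta subunit and is no receptor, and they left out proteins that bind integrins, such as ITGB1BP1. The rule uses symbols and no measured value, although it was written with earlier results of these data known.

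An integrin is a pair of 1 alpha and 1 beta subunit that spans the membrane, binds a ligand outside the cell and is coupled to the actin skeleton by talin and kindlin inside it. The beta-1 subunit pairs with many alpha subunits, whereas the beta-2 subunit and its alpha partners are known from leukocytes. A laminin is a trimer of an alpha, a beta and a gamma chain. The alpha-4 and alpha-5 chains, joined to beta-1 and gamma-1, are the laminins known from the basement membrane of blood vessels, and LAMA3 and LAMB3 encode chains known from epithelium.

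The cells were hCMEC/D3, one immortalized line derived from the endothelium of small vessels of the human brain. They were grown until confluent in endothelial medium on rat-tail collagen type I, itself an integrin ligand, and the labels name no treatment. Chromatin accessibility was measured in 1 ATAC-seq library, ATAC replicate 2, in which the Tn5 transposase cuts and tags open DNA. The series also holds 2 RNA libraries of the same line, which give transcript identifiers without gene names and were not used here. No other cell type or condition was compared, so each value below is a description of 1 library, without a replicate error or a test.

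The library held 22188172 tags after duplicate removal and 106415 broad peaks with a median pileup of 21.6 tags. Pileup is the number of overlapping extended tags that the authors' peak caller gave a peak. For broad peaks it is a mean over the whole peak, not the value at a summit, so it carries fractions. Fold is the ratio over a local background from the same library, also given for the whole peak. Local background in tags was derived from pileup and fold. A gene end here is 1 kb on each side of either end of a gene, and an end without a peak is one where accessibility was not detectable at this depth, not one shown to be closed. Defining markers were examined at gene ends in the same way: 10 of 10 endothelial markers had a peak there, among them CDH5 and PECAM1, and 6 of 10 leukocyte markers did, against 72.8% of all protein-coding genes. The highest end peak had a median pileup of 40.2 tags (11 to 75) over the endothelial markers and 29.5 tags (10.4 to 38.2) over the leukocyte markers that had one, both below the 45.7 tags over all protein-coding genes that had one. CD48, CD79A, IKZF1 and LYZ had none, and the end peak of PTPRC, which encodes CD45, was the lowest of the leukocyte markers with one, at 10.4 tags. The pileups of the endothelial and leukocyte markers overlapped. The leukocyte marker SPI1 reached 38.2 tags, while the endothelial markers ERG and VWF had 11 and 13.2 tags. All 5 mural cell markers also had an end peak, and of 5 epithelial markers EPCAM and KRT8 did. The RefSeq promoter table, of assembly GRCh38.p14, gave a start for 27 of the 39 genes. Genes whose start it does not give include ITGAD, ITGAL, ITGAX, ITGB2, ITGA3, ITGA7, ITGA9, ITGB3, ITGB4, LAMA1 and LAMC3.

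An end peak was present in 30 of the 39 genes (76.9%, 95% Wilson interval over genes 61.7% to 87.4%), and in 72.8% of all protein-coding genes. The integrin and laminin genes as a whole were thus near the background in this measure. Subunits that bind matrix had an end peak in 14 of 16 genes (87.5%, interval 64.0% to 96.5%). The 7 leukocyte integrin genes had one in 4 (57.1%, interval 25% to 84.2%), and the 12 laminin chains in 10 (83.3%, interval 55.2% to 95.3%). Protein-coding genes within the same ranges of length had one in 80.4%, 80% and 78.8%. The intervals overlap, and each contains the share of its length range, so these counts do not set the classes apart. The genes are all there are of each class rather than a sample. ITGA4 and ITGA9, whose products form a small subfamily that binds VCAM1 and matrix, both had an end peak, and the platelet subunit gene ITGA2B and ITGBL1 had none.

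**Figure D1:**
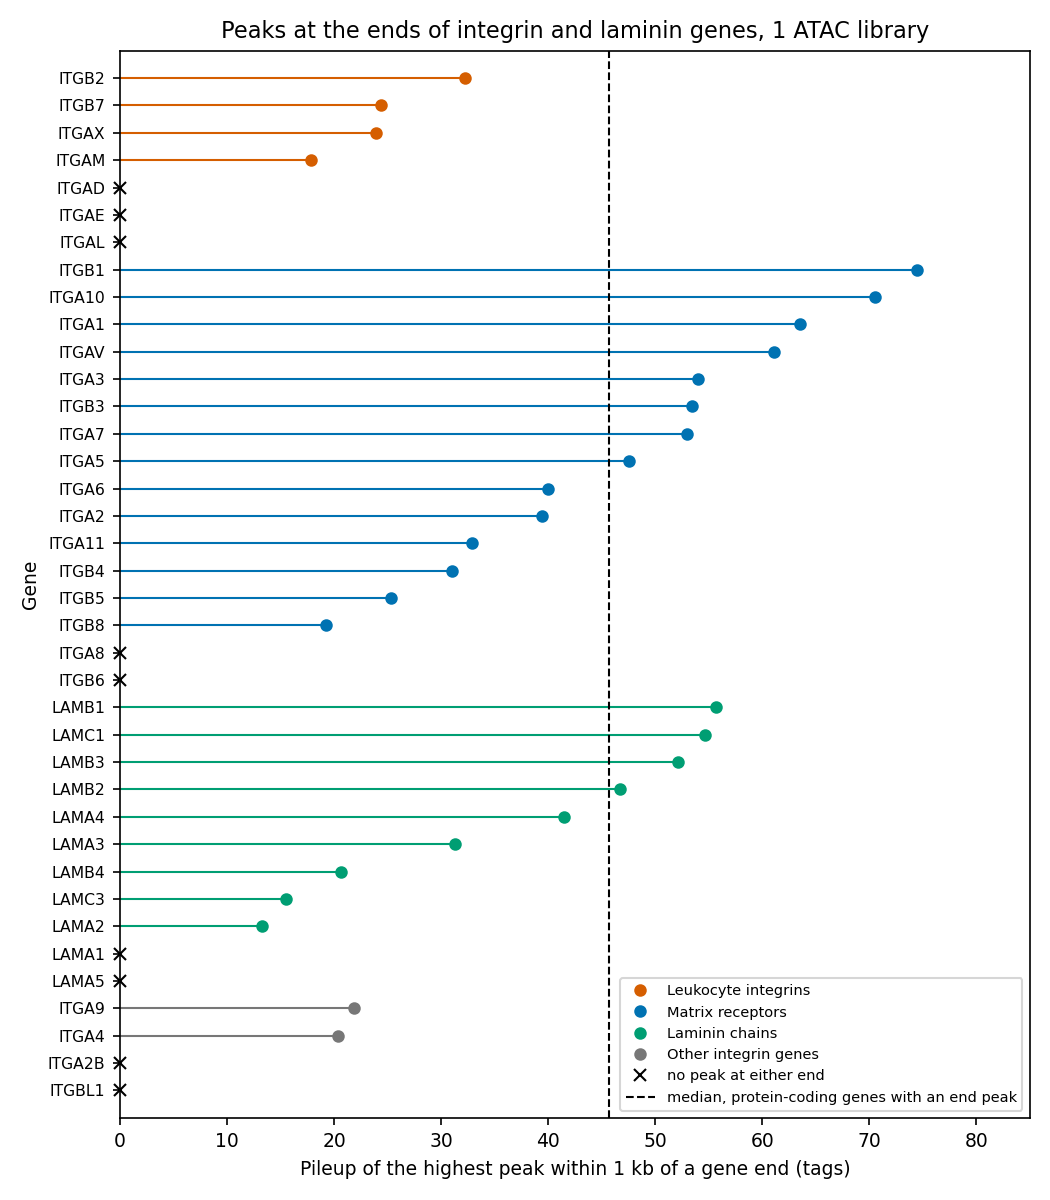
Pileup, in tags, of the highest peak within 1 kb of either end of each of 38 genes in the ATAC library; a cross marks a gene without such a peak and the dashed line is the median of 45.7 tags over protein-coding genes with an end peak. Leukocyte integrins with an end peak lie between 17.8 and 32.2 tags and matrix receptors between 19.2 and 74.5.

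At the gene ends, the matrix receptors had a higher median pileup than the leukocyte integrins and the laminin chains. The median of the highest end peak was 50.3 tags over the 14 matrix receptors that had one (exact binomial interval of the median 31.0 to 63.5), 24.2 tags over the 4 leukocyte integrins and 36.4 tags over the 10 laminin chains (interval 15.5 to 54.7). Over all protein-coding genes with an end peak it was 45.7 tags. The highest value of a leukocyte integrin was 32.2 tags, and 11 of the 14 matrix receptors (78.6%) were above it. Over all protein-coding genes with an end peak 72.7% were above it, so the share of matrix receptors was near the background. All 4 leukocyte values lay below the protein-coding median. Of these, the values of ITGAM and ITGB7 came from the far end, and ITGAX and ITGB2 have no start in the promoter table. Among matrix receptors with a start, only the values of ITGA10 and ITGB5 came from the far end. At starts only, the matrix median was 39.7 tags over 10 genes, and none of the 3 leukocyte genes with a start had a peak. The part of the side in these differences was not tested. The end peaks of the leukocyte integrins were also narrower, with a median width of 466 bp. It was 1316 bp for the matrix receptors and 1058 bp for all protein-coding genes with an end peak. Pileup is averaged over a peak's width, and the part of width in the pileup differences was not tested.

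ITGB1, the beta subunit shared by the receptors for collagen, laminin and fibronectin, had the highest end pileup of the 39 genes, 74.5 tags. The peak ran on chromosome 10 from 32958106 to 32958890 at the start of the gene, with a width of 785 bp and a fold of 3.90. The 4 other peaks of ITGB1 lay inside the gene and had pileups of 9.89 to 22.1 tags. The 250 bases before the start of ITGB1 (chr10:32958231-32958480, minus strand, GRCh38.p14), all of which lay in that peak, are shown with those before the start of ITGA8, a gene of the same class without a peak there (chr10:15719923-15720172, minus strand), and of ITGA5 (chr12:54419267-54419516, minus strand), which was chosen after its values were seen. Sequences are from RefSeq, 5′ to 3′, and capitals mark matches on either strand to the motifs searched: CCGGAAG and AGGAAG for ETS factors, TGANTCA for AP-1, GGGCGG for the GC box, TATAAA for the TATA box, TGTGGT for RUNX and GGAATG for TEAD. Neighbouring matches can overlap.
ITGB1: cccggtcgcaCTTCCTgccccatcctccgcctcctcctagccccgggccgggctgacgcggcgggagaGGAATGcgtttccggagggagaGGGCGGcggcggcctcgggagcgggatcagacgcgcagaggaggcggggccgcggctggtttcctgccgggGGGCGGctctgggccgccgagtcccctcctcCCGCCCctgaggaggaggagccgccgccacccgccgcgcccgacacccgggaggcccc
ITGA8: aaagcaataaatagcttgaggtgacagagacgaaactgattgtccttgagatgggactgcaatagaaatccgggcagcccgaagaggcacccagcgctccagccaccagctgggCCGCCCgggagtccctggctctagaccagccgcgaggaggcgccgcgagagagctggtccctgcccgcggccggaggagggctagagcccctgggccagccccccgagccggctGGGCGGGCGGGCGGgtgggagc
ITGA5: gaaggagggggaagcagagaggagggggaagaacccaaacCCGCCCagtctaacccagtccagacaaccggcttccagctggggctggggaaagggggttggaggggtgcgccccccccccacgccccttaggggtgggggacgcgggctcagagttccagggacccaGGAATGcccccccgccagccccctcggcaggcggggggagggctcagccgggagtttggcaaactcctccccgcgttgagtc

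The ITGB1 stretch held 3 GC boxes, 1 AGGAAG match and 1 GGAATG match, with 78.4% G+C and 32 CpG pairs. ITGA8, which encodes a subunit for matrix proteins with the RGD sequence, had 4 GC boxes, 3 of them in 1 overlapping run, with 68.0% G+C and 19 CpG pairs, and its nearest peak lay 5867 bp from its start. The ITGA5 stretch held 1 GC box and 1 GGAATG match. Such matches describe letters and not binding: a GC box was found in 53.7% of the 22199 windows of protein-coding genes of the same length, AGGAAG in 28.7%, GGAATG in 10.5%, CCGGAAG in 10.7%, TATAAA in 9.0%, TGTGGT in 9.36% and TGANTCA in 5.36%. A GC box was present in 52.9% of the 34 windows of the 27 genes and AGGAAG in 35.3%.

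A peak lay over 20 of these 34 windows (58.8%), against 64.8% of the windows of all protein-coding genes. The 20 windows with a peak had a median of 70.2% G+C and 18.5 CpG pairs in the 250 bases before the start, and the 14 without a peak 51.4% and 5.0. The same held over all protein-coding genes, with 66.0% and 21.0 against 52.0% and 4.0. Base composition thus moved with the presence of a peak, and its part in the differences between classes was not tested. With at least 65% G+C, 11 of 13 windows of integrin and laminin genes had a peak (84.6%, against 85.1% of such protein-coding windows), and the exceptions were ITGA8 and LAMA5. Below it, 9 of 21 had one (42.9%, against 50.9%), among them those of ITGA10 and LAMA4 with 48.4% G+C.

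The 4 subunits of collagen receptors all had an end peak. ITGA1, the alpha-1 subunit, had a peak of 63.5 tags and 5.64-fold at its start, on chromosome 5 from 52787716 to 52788615, which also lies at an end of PELO, a gene nested in it. ITGA2, its neighbour on chromosome 5, had a start peak of 39.4 tags and 3.33-fold. ITGA10 had 70.5 tags and 4.96-fold at its far end (chromosome 1, 145891168 to 145892724) and 26.6 tags at its start. ITGA11 had a start peak of 32.9 tags and 6.35-fold. In ITGA2 and ITGA11 the highest peak lay far inside the gene: 71.7 tags at 42.6 kb from the start of ITGA2 and 66.7 tags at 79.5 kb from the start of ITGA11. ITGA2 also held the peak of highest fold in the 39 genes, 10.8-fold with 59.7 tags, on chromosome 5 from 53019269 to 53019772.

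All 4 subunits of laminin receptors had an end peak as well. ITGA3 had 54.0 tags over a 2061 bp peak, the widest in the 39 genes, on chromosome 17 from 50055201 to 50057261. Its fold was 2.75, with a local background of 19.0 tags. ITGA7 had 53.0 tags and 3.44-fold on chromosome 12 from 55715912 to 55716772, a peak shared with an end of BLOC1S1. ITGA6 had 40 tags at its start, and 65.1 tags at 15 kb inside the gene. ITGB4, the partner of alpha-6 in hemidesmosomes, had an end peak of 31.0 tags. Its highest peak, of 46.8 tags, lay inside the gene.

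The 7 genes of RGD receptors, which bind fibronectin, vitronectin or latent TGF-beta, were the most uneven of the matrix classes. ITGAV, the common alpha subunit of this class, had a start peak of 61.1 tags and 4.97-fold on chromosome 2 from 186589599 to 186591309. ITGB3, the beta subunit of the vitronectin receptor, had an end peak of 53.4 tags and 5.40-fold on chromosome 17 from 47253572 to 47254705, and a peak of 84.8 tags and 8.31-fold inside the gene. The fibronectin receptor gene ITGA5 had 47.6 tags at its start but a fold of 2.17, the lowest of the 30 genes with an end peak, against a local background of 21.4 tags.

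ITGB5 showed more than 1 start. The peak at its outer start had 9.06 tags and 2.98-fold, and a peak of 43.2 tags lay over both inner starts of the promoter table, 14.3 kb into the gene. Its highest end peak, of 25.3 tags and 6.63-fold, lay at its far end and is the value that enters the medians. ITGB8 had a start peak of 19.2 tags. ITGA8 and ITGB6 had no end peak, and ITGA8 held a single peak of 21.5 tags in 206 kb. ITGB6, known from epithelium, held 5 peaks, the highest of 37.8 tags and 8.75-fold and the nearest 5130 bp from its start.

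The leukocyte integrins gave a different picture at their ends. ITGB2, the beta subunit of the leukocyte receptors, had 1 end peak, of 32.2 tags and 3.52-fold, on chromosome 21 from 44927586 to 44928456. ITGB7, the beta subunit of gut-homing lymphocytes, had 24.4 tags and 5.70-fold on chromosome 12 from 53190008 to 53190621, at the end away from its start. ITGAX had 23.9 tags at its higher end and 13.6 tags at its lower end. ITGAM had 17.8 tags at its far end, and the peak nearest to its start lay 5312 bp away. ITGAL, ITGAD and ITGAE had no end peak. None of the 3 leukocyte genes with a start in the table (ITGAE, ITGAM and ITGB7) had a peak within 1 kb of it, against 10 of 12 matrix receptors, 7 of 9 laminin chains and 71.2% of all protein-coding genes with a start. A peak at the far end was found for ITGAM and ITGB7 and for 3 of those 12 matrix receptors, against 19.1% of protein-coding genes. ITGAX, whose start the table does not give, had a peak at each end, so a peak lay at its start whichever end that is. The start of ITGB2 is not given either, so the side of its end peak is open.

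The stretches before the starts of ITGB7 (chr12:53207252-53207501, minus strand) and ITGAE (chr17:3801189-3801438, minus strand) are shown as the leukocyte starts without a peak, in the same format.
ITGB7: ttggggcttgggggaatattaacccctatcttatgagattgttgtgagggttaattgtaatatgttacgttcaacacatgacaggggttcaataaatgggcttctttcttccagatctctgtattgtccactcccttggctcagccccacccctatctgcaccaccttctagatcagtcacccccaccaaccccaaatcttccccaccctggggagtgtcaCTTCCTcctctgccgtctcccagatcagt
ITGAE: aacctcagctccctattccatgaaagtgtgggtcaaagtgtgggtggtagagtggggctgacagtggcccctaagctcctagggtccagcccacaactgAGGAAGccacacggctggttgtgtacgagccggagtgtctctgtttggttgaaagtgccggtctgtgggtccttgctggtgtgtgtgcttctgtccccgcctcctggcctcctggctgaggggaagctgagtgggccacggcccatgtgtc

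Each held 1 AGGAAG match and no GC box, with 49.6% G+C and 2 CpG pairs before ITGB7 and 60.0% and 6 before ITGAE. The ITGAM stretch held 3 AGGAAG matches and 2 GC boxes, with 53.2% G+C. No TGTGGT match was present in these 3 windows.

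All 7 leukocyte genes nevertheless held peaks, 2 to 9 each and 30 in all, of which 25 lay away from the ends. The highest was a peak of 54.0 tags and 5.12-fold inside ITGB2, on chromosome 21 from 44914779 to 44915319. ITGAE held 9 peaks, more than the third quartile of 7 for genes within 20% of its length. Its highest, of 37.1 tags, lies also at ends of HASPIN and P2RX5, and to which of the 3 genes it belongs was not tested. ITGAL held 5 peaks of 8.68 to 23.9 tags, ITGAD 3 of 9.67 to 28.7 tags. Over all their peaks the median pileup was 20.9 tags in the leukocyte genes, 26.7 in the matrix receptors, 24.6 in the laminin genes and 23.5 in all protein-coding genes. The class medians thus lay closer together over all peaks than at the gene ends. The measures are unlike, since the former pool every peak and the latter take the highest end peak of each gene.

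**Figure D2:**
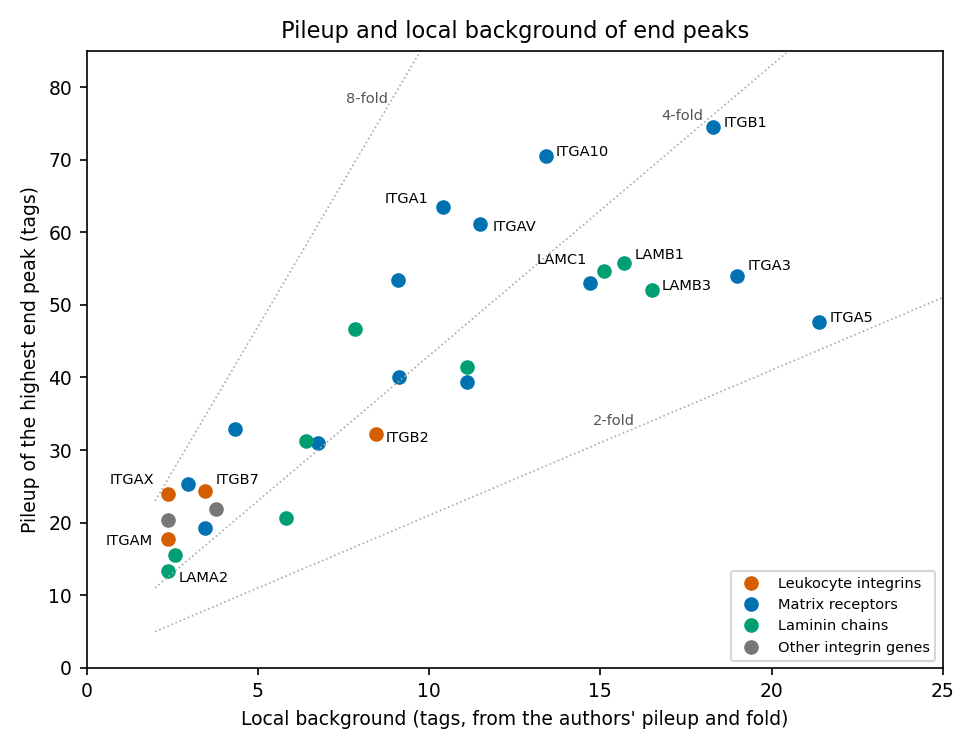
Pileup of the highest end peak against its local background, both in tags, for 29 genes with an end peak; dotted lines mark 2, 4 and 8-fold as the caller computes it. ITGAX and ITGAM lie at the background floor of 2.37 tags, while ITGB1, ITGA3 and ITGA5 lie at 18.3, 19.0 and 21.4 tags.

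By fold, the leukocyte integrins were highest of the classes instead of lowest, and the matrix receptors remained above the laminin chains. The median fold of the highest end peak was 5.64 over the 4 leukocyte integrins, 4.33 over the 14 matrix receptors, 3.88 over the 10 laminin chains and 5.02 over protein-coding genes with an end peak. The local background of the same peaks had a median of 2.91 tags for the leukocyte integrins, 10.8 tags for the matrix receptors, 7.13 tags for the laminin chains and 7.88 tags for protein-coding genes. ITGAX, with 23.9 tags, reached 7.39-fold, the highest of the 30 genes, and ITGB1, with 74.5 tags, 3.90-fold. A high fold therefore did not mark a high pileup in these genes.

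Among laminin alpha chains, LAMA4, the alpha-4 chain of vessels, had a start peak of 41.5 tags and 3.52-fold on chromosome 6 from 112253632 to 112254847. A total of 19 peaks lay in LAMA4, the highest of 61.5 tags at 18.8 kb from the start. LAMA3, an alpha chain known from epithelium, had 31.3 tags and 4.36-fold at its outer start on chromosome 18 from 23689114 to 23690743, and no peak over the inner start that the promoter table lists. LAMA2, known from muscle, had 13.3 tags at its start. Its highest peak, of 50 tags, lay 608 kb from the start and close to the other end, where 5 of its 12 peaks lay between 603.4 and 618.3 kb. LAMA1 had no end peak and 2 peaks in 176 kb.

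LAMA5, the alpha-5 chain of vessel basement membrane, had no peak at either end and the highest single pileup of the 39 genes, 97.3 tags. That peak ran on chromosome 20 from 62359138 to 62360092, 7.70 kb inside the gene, with a fold of 2.76 over a local background of 34.6 tags. A peak of 69.6 tags and 2.71-fold lay 1149 bp from the start, just outside the 1 kb limit. Of its 10 peaks, 6 lay within 12 kb of the start, with pileups of 50.7 to 97.3 tags.

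All 4 beta chains had an end peak, as did the gamma chain genes LAMC1 and LAMC3. LAMB1 had 55.7 tags and 3.40-fold at its start on chromosome 7 from 108003088 to 108003625. LAMC1, its gamma-1 partner, had 54.7 tags and 3.45-fold at its start on chromosome 1 from 183022308 to 183024262, over a width of 1955 bp. LAMB3 had 52.1 tags and 3.03-fold at 501 bp before its start, on chromosome 1 from 209652926 to 209653417. No peak lay over the promoter windows of its outer starts, and 45.2 tags lay over an inner start. LAMB2 had 46.7 tags at its far end, shared with USP19, and 43.4 tags at its start. LAMB4 had 20.6 tags at its far end, and the peak nearest to its start lay 15635 bp away. LAMC3 had 15.5 tags.

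By trimer, the end peaks of LAMA4, LAMB1, LAMB2 and LAMC1 had 41.5 to 55.7 tags, while LAMA5 had none. Those of LAMA3 and LAMB3 had 31.3 and 52.1 tags. The groups overlap, since LAMB3 was above LAMA4 and LAMB2. Stretches before the starts of LAMB1 (chr7:108003162-108003411, minus strand), of the inner start of LAMA3 (chr18:23872770-23873019, plus strand) and of LAMA5 (chr20:62367313-62367562, minus strand, chosen after its values were seen) are given as the laminin start with the highest pileup and 2 without a peak over the window.
LAMB1: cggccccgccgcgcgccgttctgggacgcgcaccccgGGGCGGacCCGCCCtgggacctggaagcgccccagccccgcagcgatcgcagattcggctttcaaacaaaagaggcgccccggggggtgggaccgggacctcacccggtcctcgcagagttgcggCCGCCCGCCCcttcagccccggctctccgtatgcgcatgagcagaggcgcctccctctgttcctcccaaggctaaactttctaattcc
LAMA3: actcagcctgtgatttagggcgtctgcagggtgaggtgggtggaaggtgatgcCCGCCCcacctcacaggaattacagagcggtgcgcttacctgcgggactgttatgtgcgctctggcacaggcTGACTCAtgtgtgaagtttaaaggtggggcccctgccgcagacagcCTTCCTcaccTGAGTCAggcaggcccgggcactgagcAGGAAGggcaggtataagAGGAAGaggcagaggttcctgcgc
LAMA5: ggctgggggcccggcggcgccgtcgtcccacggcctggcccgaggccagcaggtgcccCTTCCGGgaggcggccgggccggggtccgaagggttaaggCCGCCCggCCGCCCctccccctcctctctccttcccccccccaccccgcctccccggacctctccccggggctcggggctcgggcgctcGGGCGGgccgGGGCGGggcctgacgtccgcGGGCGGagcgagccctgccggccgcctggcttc

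LAMB1 held 4 GC boxes with 70.4% G+C. The inner start of LAMA3 held 2 TGANTCA matches, 3 AGGAAG matches and 1 GC box, with 60.4% G+C. LAMA5 held 5 GC boxes and 1 CCGGAAG match, with 82.8% G+C.

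**Figure D3:**
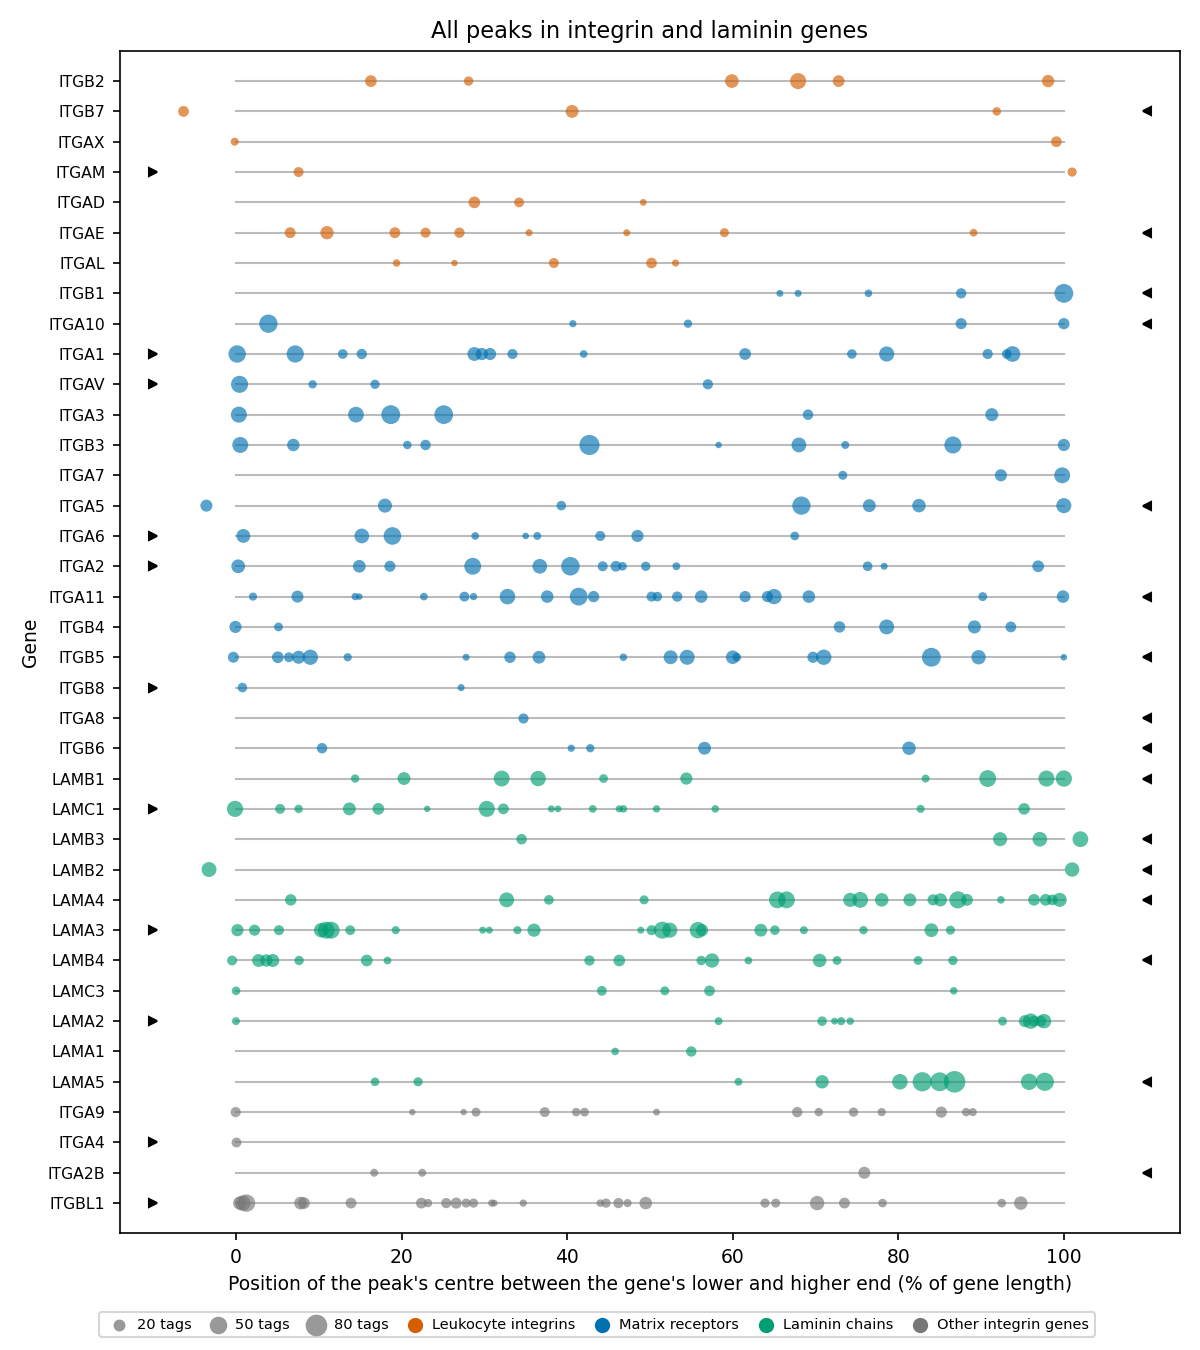
Every peak in 38 of the genes and 1 kb around them, placed as a percentage of gene length from the lower to the higher coordinate; the size of a point is the pileup in tags and a triangle marks the side of the start where the promoter table gives it. Peaks of ITGB1 and ITGAV are largest at the start, those of LAMA5 and LAMA3 inside the gene.

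All 39 genes held at least 1 peak within the gene or 1 kb around it, against 83.7% of protein-coding genes. That background is not matched on length: it includes genes down to 0.051 kb, while the shortest of the 39 was 11.9 kb. The 39 genes held 339 peaks in all. Of these, 302 lay away from the ends. The number of peaks followed gene length, with a Spearman rho of 0.525 across the 39 genes and 0.656 across protein-coding genes, where genes are not independent replicates. The median was 6.0 peaks in the matrix receptors, 3.0 in the leukocyte integrins and 10 in the laminin genes, at median lengths of 82.6, 42.9 and 102 kb. Protein-coding genes between the shortest and the longest gene of each class had medians of 3.0, 2.0 and 3.0. Per 100 kb of gene and flanks, the class medians were 12.1, 9.53 and 12.5 peaks, against 5.83, 6.45 and 6.0 in those ranges. The ranges hold many genes shorter than the class medians. Protein-coding genes of 80 to 160 kb, where the matrix and laminin median lengths lie, had a median of 5.0 peaks. Those of 40 to 80 kb, where the leukocyte one lies, had 3.0.

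**Figure D4:**
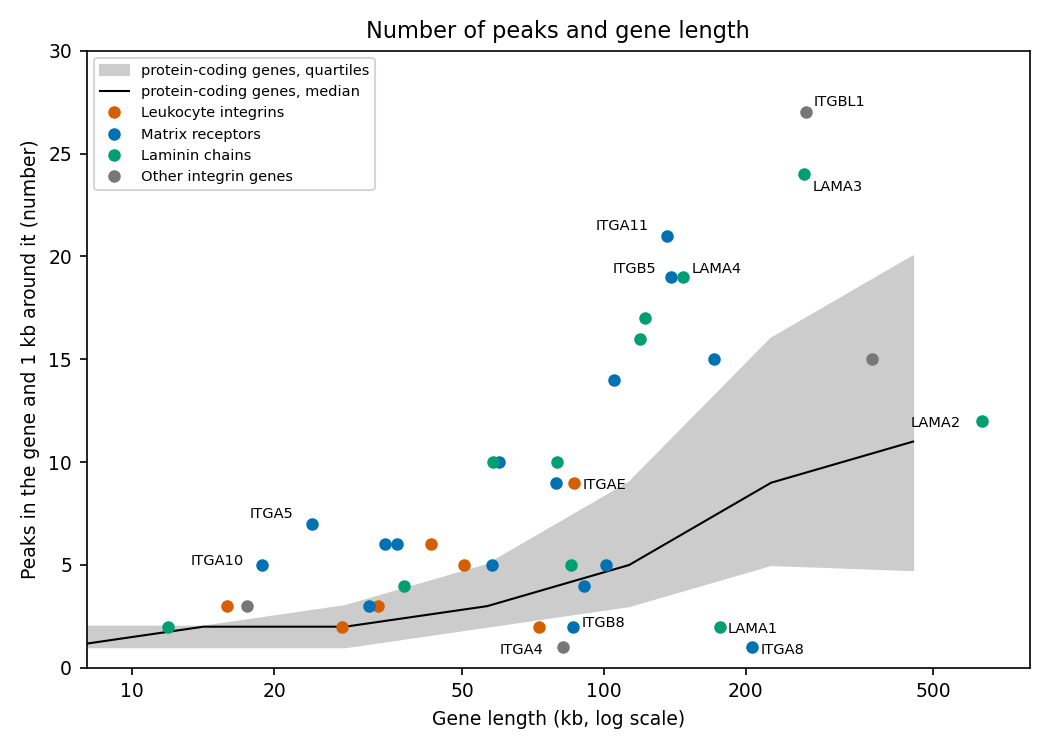
Number of peaks in each of 38 genes and 1 kb around it against gene length in kb on a log scale; the line and the grey band are the median and quartiles of protein-coding genes in length groups. ITGBL1, LAMA3, ITGA11, ITGB5 and LAMA4 lie above the band, ITGA8, LAMA1 and ITGA4 below it.

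More peaks than the third quartile of other genes within 20% of their length were found in 20 of the 39 genes (51.3%), against 18.6% of protein-coding genes by the same rule. They comprised 10 of 16 matrix receptors, 7 of 12 laminin chains and 2 of 7 leukocyte integrins, with ITGBL1. ITGA11 held 21 peaks in 136 kb where genes of its length had a median of 6.0, LAMA4 19 where the median was 7.0, LAMC1 17 where it was 6.0, and ITGB5 19 where it was 6.5. LAMA3 held 24 where it was 10. Fewer peaks than the first quartile were found for ITGA8 (1 peak, median 8.0), LAMA1 (2 peaks, median 7.0) and ITGA4 (1 peak, median 4.0), against 12.8% of protein-coding genes. ITGA4 held its only peak, of 20.4 tags and 6.34-fold, at its start on chromosome 2 from 181456784 to 181457678. ITGA9 held 15 peaks, of which the end peak on chromosome 3 from 37451648 to 37452407 had 21.9 tags and 4.78-fold.

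The highest peak of the gene lay at an end in 11 of the 39 genes (28.2%). Among all protein-coding genes with a peak this was so in 67.2%, and among genes within 20% of each gene's length in 56.4% as a mean over the 39. These comparisons were not matched on the number of peaks. That number had a median of 6.0 in the 39 genes and 3.0 in protein-coding genes of their length range, which holds many shorter genes. Its part was not tested. ITGB1, ITGAV, ITGA1, ITGA10, ITGA7, ITGB8, ITGA4, LAMC1, LAMB2, LAMB3 and ITGAX were those whose highest peak lay at an end. For genes with a start, the 18 peaks centred within 1 kb of it had a median pileup of 40.8 tags and a median width of 904 bp. The 30 peaks from 1 to 10 kb had 35.0 tags and 485 bp, and the 218 peaks farther away 22.3 tags and 458 bp.

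ITGBL1 and ITGA2B, outside both classes, had no end peak. ITGBL1 held 27 peaks, the most of the 39 genes, in 268 kb, where genes of its length had a median of 10. Its first peak lay 1084 bp from the start, and its highest, of 63.9 tags, 3.40 kb from it. ITGA2B, the platelet subunit, held 3 peaks, the highest of 30.6 tags at 4.21 kb from the start.

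The limit of 1 kb and the peak filter decided some of these counts. With peaks of at least 4-fold, the laminin share was 41.7%, below the 56.0% of protein-coding genes, and the matrix share was 62.5%. The leukocyte share was then 42.9% (3 of 7), no longer below that of the laminin chains. Just inside the limit of 1 kb lay the end peaks of ITGB7 at 702 bp and 24.4 tags and of ITGAM at 784 bp and 17.8 tags. Just outside lay peaks of ITGBL1 at 1084 bp and 36.9 tags, of ITGB7 at its start at 1140 bp and 15.1 tags, and of LAMA5 at 1149 bp and 69.6 tags. At 500 bp, where 69.2% of protein-coding genes had an end peak, ITGB7 and ITGAM lost theirs and the leukocyte share was 28.6% (2 of 7). LAMB3, with its peak at 501 bp, lost its end peak as well. The laminin share was then 75.0%, the matrix share 87.5% and that of all 39 genes 69.2%, equal to the background. At 2500 bp, where 79.2% of protein-coding genes had one, the leukocyte share was 57.1%, the matrix share 87.5%, the laminin share 91.7% and that of all 39 genes 82.1%.

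**Figure D5:**
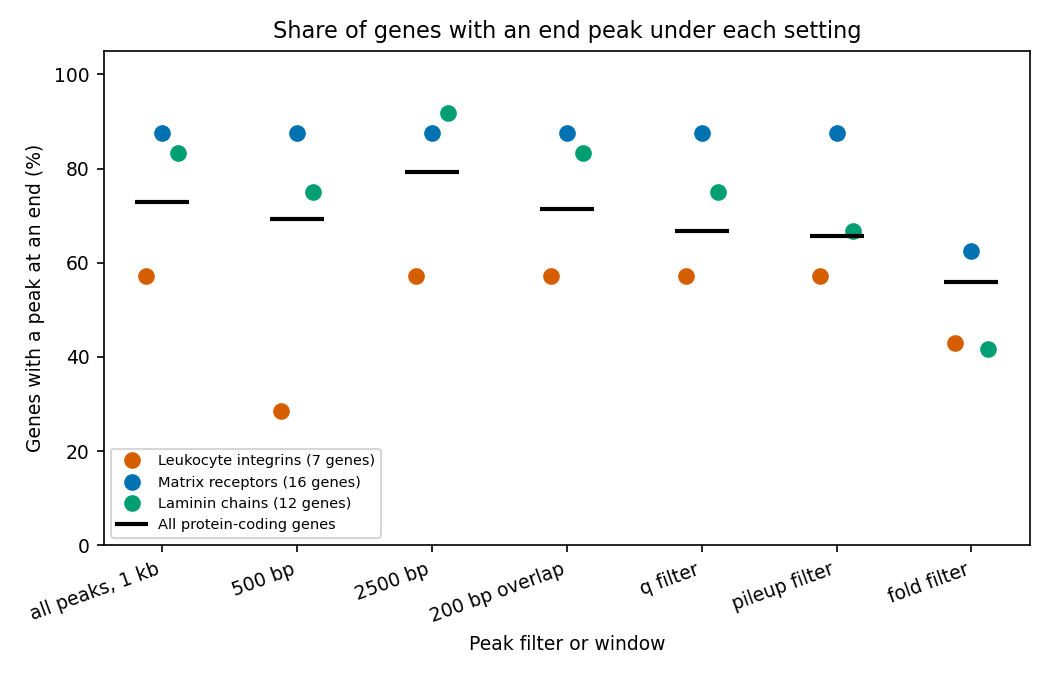
Percentage of leukocyte integrins, matrix receptors and laminin chains with an end peak under 7 windows and peak filters, with all protein-coding genes as black bars. Matrix receptors lie above and leukocyte integrins below the bar in each setting, while laminin chains lie below it with the fold filter.

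Genes that work with integrins and laminins were described from a list of 29. An end peak was found for 27 (93.1%, interval 78.0% to 98.1%), against 72.8% of protein-coding genes, with a median pileup of 44.0 tags. With peaks of at least 4-fold the share was 55.2%, against 56.0% of protein-coding genes, so the excess was not present under that filter. Of 18 intracellular partners, 16 had one. TLN1, which encodes talin, had 116 tags and 4.23-fold on chromosome 9 from 35731920 to 35732782, and VCL, which encodes vinculin, 88.1 tags and 4.79-fold on chromosome 10 from 73997432 to 73998466. PARVB and PARVG, members of the parvin family, had no end peak. All 11 matrix proteins and laminin binders had one. DAG1, the laminin receptor dystroglycan, had 87.5 tags and 5.15-fold on chromosome 3 from 49469169 to 49470942. The fibronectin gene FN1 had 62.8 tags and 3.28-fold on chromosome 2 from 215435554 to 215436874. COL4A1 and COL4A2 share 1 end peak of 41.9 tags. Of genes chosen after their values were seen, FERMT3, the kindlin known from blood cells, had an end peak of 42.3 tags, above that of every leukocyte integrin, and TNC one of 8.69 tags.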

How the data were processed

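The ATAC library was sequenced as paired ends per the labels' protocols. The authors deposited a broad peak list made with MACS 2.2.7.1 on this 1 library without a control, per the file headers, with a shift of -100 bp, an extension size of 200 bp, q of 0.05 (0.1 for broad regions), 1 tag per position, single-end mode and the mouse genome size of 1870000000 bp. Each deposited peak has a pileup signal, a fold ratio over local background, a −log10 p-value and a −log10 q-value. They are the authors' values and were used only within this list. Bowtie2, SAMtools 1.13 and Picard are named, with builds GRCh38 and mm10, per the submitters' processing notes, and which step used which is not given in the sources used here.

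The peak list names no build. Promoter windows of GRCh38.p14 held a peak in 64.7% of cases as given and in 4.93% to 6.49% after offsets of 2000 to 20000 bp. Peak positions are those of the list, and those of sequences are GRCh38.p14. Gene ends came from the RefSeq table, and an overlap of at least 1 bp counted. Of several end peaks, that of highest pileup was taken. Fold was taken as (pileup + 1) / (background + 1), and local background was derived from that. The smallest background so computed was 2.37 tags, as is the floor from the genome size. The relation was checked only at this floor, within 1% of which 35.2% of peaks lay. Backgrounds above it are estimates, since pileup and fold are values for the whole peak. Because that genome size is smaller than a human one, the floor is higher and fold at low background lower. Overlap counting was tested on simulated data (Python 3.11.15, pandas 2.3.3, scipy 1.17.1).

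The genes, classes and lists were chosen with earlier results of these data known. The rule for named genes took, for each class, the 2 members with the highest end pileup in full and every member without an end peak. Of adhesion partners it took the 2 with the highest end pileup among intracellular partners and among matrix binders, and those without an end peak. One laminin gene counts in the totals and is not reported here by name. Windows, overlap and peak filters were varied.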

Additional observations from a re-analysis of the deposited data

How the results depend on the processing

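The shares, median pileups and median peak numbers were recomputed under windows of 500 and 2500 bp, an overlap of 200 bp, peaks with −log10 q of at least 5, at least 4-fold peaks, as many peaks by highest pileup, gene starts only, peaks inside genes only, end peaks not shared with another protein-coding gene, and other class lists. Of 71 alternative values, 65 stayed within the 95% interval of the reported value (within 1.5-fold for numbers of peaks; within the range of the 4 genes for the median pileup of the leukocyte integrins) and 6 moved. These intervals over genes are wide for small classes. That of the leukocyte share runs from 25% to 84.2%, so its fall from 57.1% to 28.6% at 500 bp counts as within it. With peaks of at least 4-fold only, an end peak was found for 51.3% of the 39 genes, 62.5% of matrix receptors, 41.7% of laminin chains and 55.2% of adhesion partners, against 56.0% of all protein-coding genes, and the median number of peaks in laminin genes was 6.0. The leukocyte share with these peaks was 42.9% (3 of 7). That filter keeps 66460 of the 106415 peaks, and laminin end peaks had a median fold of 3.88. With gene starts only, the leukocyte share was 0.0% of 3 genes, which leave out ITGAX with its peak at each end. With ITGA4 among them the leukocyte share was 62.5%, and without end peaks shared with another protein-coding gene the matrix share was 75.0%. No paired analysis was possible because accessibility comes from 1 library, which leaves no pairs to block on, and no result comes from a test. The lowest pileup called was 8.0 tags, so a gene end without a peak was not detectable as open at this depth.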
